A study of Drosophila melanogaster with 5 samples.

Results

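The genes described here are those of translation initiation factors and aminoacyl-tRNA synthetases in Drosophila S2 cells. They were picked by name alone from the deposited table of annotated CDSs (the protein-coding parts of mRNAs). A gene was a member when its symbol, without the isoform suffix, began with eIF or with Aats-, the older FlyBase prefix for aminoacyl-tRNA synthetases, and the longest CDS stood for the gene. This gave 50 of 13967 genes, with 112 of the 28529 listed CDSs. Of these, 29 were initiation factors and 21 were synthetases.

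Initiation factors bring the small ribosomal subunit, the initiator tRNA and the mRNA together at a start codon. In outline, eIF2 carries the initiator tRNA, eIF2B recharges eIF2 with GTP, eIF3 is a large scaffold on the small subunit, the eIF4 proteins bind the cap and unwind the mRNA, and eIF5 and eIF5B complete the joining of the ribosome. Aminoacyl-tRNA synthetases load each tRNA with its amino acid. Animal cells keep a cytosolic set and a mitochondrial set of these enzymes, and the mitochondrial set is encoded in the nucleus, translated in the cytosol and imported.

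All samples came from untreated S2 cells, an embryo-derived line, which were exposed to cycloheximide shortly before lysis to hold ribosomes in place. Ribosome footprints (the mRNA fragments that ribosomes protect from nuclease) were sequenced from small polysomes, with 2 to 6 ribosomes on an mRNA, from large polysomes with at least 7, and from all polysomes after rRNA depletion. A biological replicate of the small polysomes, sequenced more deeply, is called small polysomes extensive. Poly(A) mRNA of the whole cytoplasm was the control, and each of these 5 groups had 1 sample, so the report gives values with counting intervals and no p-values.

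Expression was given as RPKM, the read count of a CDS divided by its length and by its library's mapped reads. The mapped reads, read from the steps between RPKM values, numbered 2625000 to 9160000 in the footprint libraries and 4560000 for mRNA. A single read in a CDS of 1000 nt was therefore worth 0.109 to 0.381 RPKM. The median of all genes was 1.97 RPKM of mRNA. Among blood cell markers of the line, srp (109 RPKM of mRNA) and Pxn (327 RPKM) were high, whereas Hml, He, vkg and Cg25C were at 1.73 RPKM or lower. Of the markers of other cell types, vas, aly and can were at 0, Mhc and elav were at 0.298 and 1.66 RPKM, and the germline gene bam was at 26.2 RPKM.

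Some of the names did not carry the role they appear to state. All 50 members were matched to a current symbol in the reference gene tables, 48 by gene identifier and 2 by an older symbol. Aats-ala-m was the only synthetase whose name ended in -m, the mark for a mitochondrial enzyme. By current symbol 5 further synthetases are mitochondrial: Aats-leu (LeuRS-m), Aats-met (MetRS-m), Aats-phe (PheRS-m), Aats-pro (ProRS-m) and Aats-ser (SerRS-m). The synthetases are therefore divided below into 15 cytosolic and 6 mitochondrial genes by current symbol. The division by name is given beside it for mRNA and polysome ratio, and in the last section as log2 differences. Cytosolic here means a symbol without -m, which does not show that the enzyme is absent from mitochondria. No listed synthetase with -m was found for glycine, histidine, lysine or threonine, so Aats-gly, Aats-his, Aats-lys and Aats-thr may serve both compartments. Among the initiation factors, eIF-5A is now named eEF5 and is known as an elongation factor, and eIF4AIII is the helicase of the exon junction complex.

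Of the 50 members, eIF-4B, which lies on the heterochromatic scaffold 2RHet, carried no values. Another 4 members, eIF4E-3, eIF4E-4, eIF4E-5 and eIF4E-7, are paralogs of the cap-binding protein and had no mRNA read. A count of 0 allows up to 0.895, 0.953, 0.941 and 0.510 RPKM for these genes, in that order, where the limit is 3 reads. Their footprints came to 1 read for eIF4E-3 in the small polysomes and 1 read for eIF4E-7 in all polysomes. Each of the other 45 members had at least 10 RPKM of mRNA, that is 45 of the 49 members with values, whereas 40.0% of all 13842 genes with values reached this level. These 45 members, 24 initiation factors and 21 synthetases, also had enough reads for every ratio described below.

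The cytosolic synthetases were more abundant as mRNA than the mitochondrial ones, without overlap. The 15 cytosolic genes ranged from 39.9 RPKM for Aats-cys to 178 RPKM for Aats-ala, with a median of 85.8. The 6 mitochondrial genes ranged from 13.2 RPKM for Aats-pro to 28.7 RPKM for Aats-leu, with a median of 20.5. The medians differed 4.18-fold, and the 95% order-statistic intervals of the medians bound this fold at 2.59 and 9.93. Divided by name, the 20 synthetases without -m had a median of 75.3 RPKM, against 24.9 RPKM for Aats-ala-m alone. Here 4 of the 20 lay below Aats-ala-m, and all 4 are mitochondrial by current symbol.

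Initiation factors covered a far wider range of mRNA than synthetases. The 28 with values had a median of 68.1 RPKM, against 74.7 RPKM for the 21 synthetases, and the fold between the medians was 0.911 with bounds of 0.372 and 7.72. The lower median rests on the 4 eIF4E paralogs without mRNA reads, and over the 24 expressed factors it was 98.8 RPKM, which turns the direction to 1.32-fold, with log2 bounds of -1.24 and 3.12 that include 0. Both ends of the range were genes with eIF names, as 10, with eIF-5A among them, lay above every synthetase and the 4 unexpressed eIF4E paralogs lay below every one. The highest were eIF-5A, now eEF5, at 2776 RPKM and eIF-4a, the RNA helicase of the cap-binding complex, at 1364 RPKM. The plot of footprint against mRNA density shows these ranges.

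**Figure D1:**
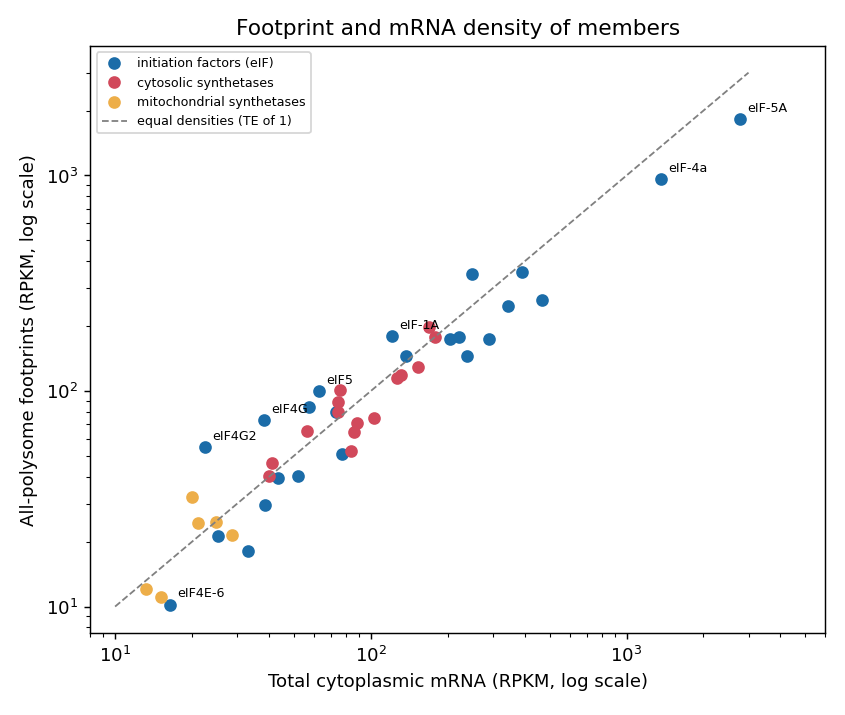
Footprint density in all polysomes (RPKM, log scale) against total cytoplasmic mRNA (RPKM, log scale), 1 point per gene for the 45 members with mRNA reads, with the line of equal densities dashed. Mitochondrial synthetases sit at 13.2 to 28.7 RPKM of mRNA and cytosolic synthetases at 39.9 to 178, while eIF-5A and eIF-4a lie far to the right and eIF4G2 lies farthest above the line.

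Subunits of the multi-protein factors were listed at these mRNA densities. The 5 members that belong to eIF3 lay at 222 to 468 RPKM. Of the eIF3 genes listed under other names, those with mRNA reads ran from 71.2 RPKM (Adam) to 577 RPKM (Trip1). No mRNA read fell on CG8335 (eIF3f2), CG4810 (eIF3d2) or CG10881 (eIF3g2). The 3 subunits of eIF2 lay at 137 to 249 RPKM. The 5 subunits of eIF2B, the exchange factor of eIF2, lay lower, at 25.3 to 51.9 RPKM, and did not overlap with eIF2. Of the scaffold proteins that bridge cap and ribosome, eIF4G had 38.4 RPKM and its paralog eIF4G2 had 22.5 RPKM, well below their partners eIF-4E (205 RPKM) and eIF-4a. Among members the only other eIF4E paralog with mRNA reads, eIF4E-6, stood at 16.4 RPKM from 39 reads.

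The polysome ratio, the footprint density in large over small polysomes, separated cytosolic from mitochondrial synthetases. A ratio is given where at least 20 footprints fell on the CDS over both libraries, and the median of 6667 such genes was 1.33. The ratios of the 15 cytosolic synthetases ranged from 1.72 to 8.19 with a median of 3.38, and those of the 6 mitochondrial ones from 0.574 to 1.50 with a median of 1.03. The ranges did not overlap. The medians differed 3.28-fold, with bounds of 1.52 and 8.53. Divided by name, the 20 synthetases without -m had a median ratio of 2.68, against 1.50 for Aats-ala-m alone. Here 5 of the 20 lay below Aats-ala-m, and all 5 are mitochondrial by current symbol. In 10 of the 15 cytosolic genes the ratio was at least 2-fold above the median of all genes, which 19.3% of all genes reached. Ratios above 1, found for 60.6% of all genes, were seen in all 15 cytosolic genes and in 3 of the 6 mitochondrial ones. A ratio of 1 depends on the scaling, because 51.7% of the mapped reads in the small and 72.0% in the large polysomes fell on the CDSs. With the libraries scaled to those reads, an alternative chosen after seeing the data, all 15 cytosolic genes and 1 of the 6 mitochondrial ones, Aats-ala-m, were above 1 (48.4% of all genes). None of the mitochondrial genes was 2-fold above the median of all genes, and Aats-phe was at least 2-fold below the median, where 27.2% of all genes lay.

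Aats-arg, the arginine enzyme (chrX:15735875-15738114 in FlyBase Release 5, 5 coding segments), had the highest ratio of all members. Its density was 6.10 RPKM in small polysomes, 13.3 in small polysomes extensive, 50.0 in large polysomes and 46.1 in all polysomes, with 41.0 RPKM of mRNA. Both small polysome libraries were low and the large polysomes were high, which gave a ratio of 8.19 with a 95% counting interval of 6.24 to 10.9. With the extensive library in the denominator the ratio was 3.75, since that library held more than the initial one.

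Aats-ala, the cytosolic alanine enzyme, followed at 35.6 RPKM in small polysomes, 44.4 in small polysomes extensive, 220 in large polysomes and 178 in all polysomes. Here both small polysome libraries gave a high ratio, 6.18 (5.62 to 6.81) with the initial library and 4.96 with the extensive one. Its mitochondrial counterpart Aats-ala-m, of nearly the same length (1012 against 966 aa), had 10.8, 10.4, 16.3 and 24.7 RPKM in the same order of libraries. Its ratios were 1.50 (1.19 to 1.89) and 1.57, so that this pair of enzymes for the same amino acid differed in polysome ratio beyond the counting intervals.

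Aats-cys (5.59), Aats-val (4.90), Aats-gly (4.51), Aats-ile (4.01) and the bifunctional glutamate and proline enzyme Aats-glupro (3.93) made up the rest of the upper part of the cytosolic range. At its lower end stood Aats-asp, with 73.6 RPKM in small polysomes, 91.3 in small polysomes extensive, 127 in large polysomes and 129 in all polysomes. Its ratio was 1.72 (1.53 to 1.93), and Aats-his (1.90) and Aats-tyr (1.97) were next, with intervals that overlapped that of Aats-asp.

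The lowest ratio among the synthetases belonged to Aats-phe, now PheRS-m. It had 26.3 RPKM in small polysomes, 30.9 in small polysomes extensive, 15.1 in large polysomes and 24.4 in all polysomes, with 21.1 RPKM of mRNA. Both small polysome libraries were above the large one, and the ratio was 0.574 (0.417 to 0.779), or 0.488 with the extensive library. Aats-ser, Aats-met and Aats-pro lay at 0.985, 0.997 and 1.06. The mRNAs of mitochondrial enzymes were represented by few reads (40 to 130 footprints in the large polysomes against 262 to 1676 for cytosolic genes), so their individual ratios are less precise.

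**Figure D2:**
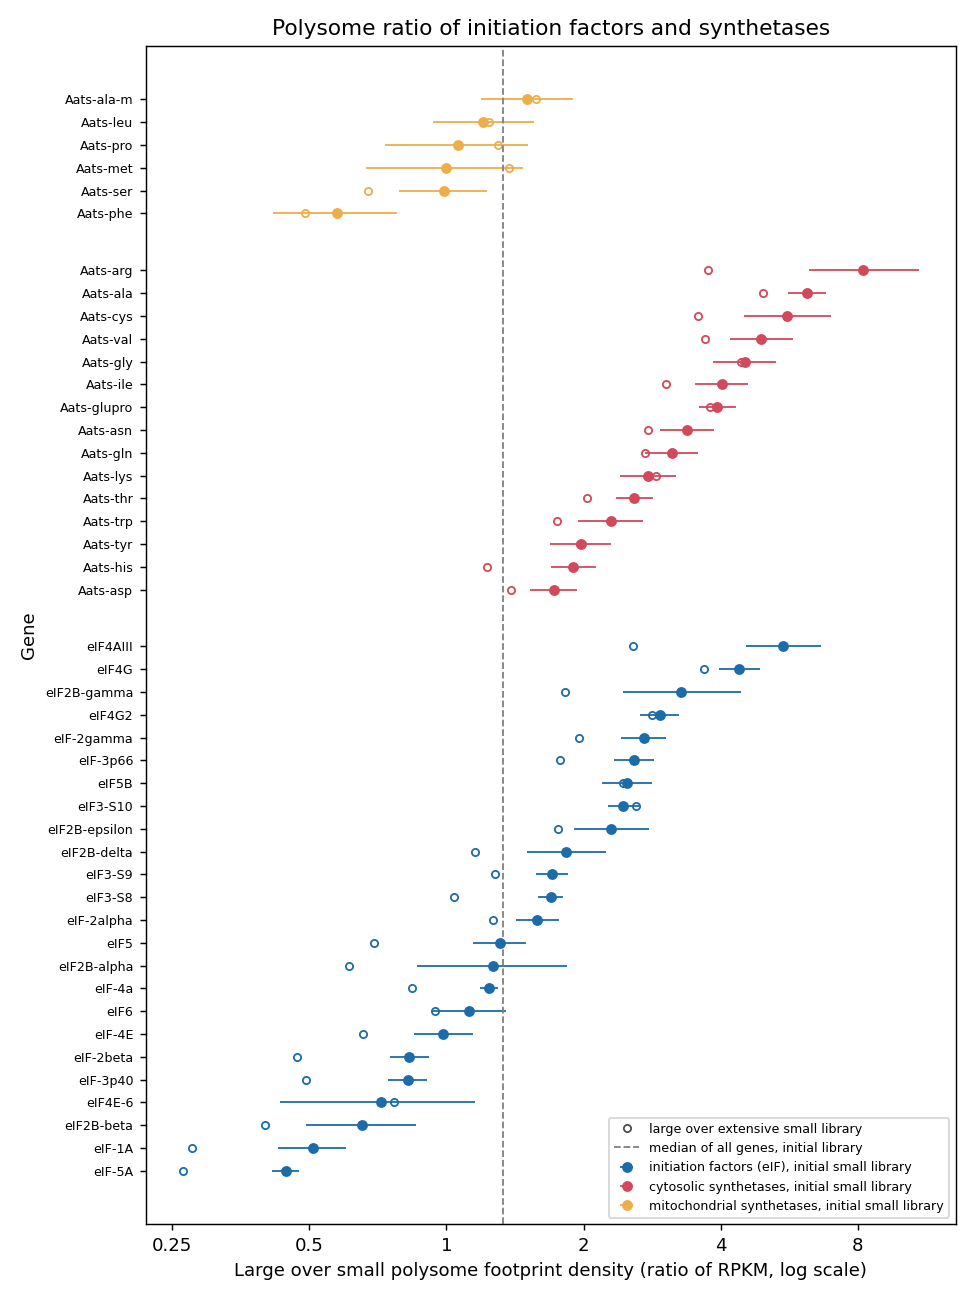
Ratio of footprint density in large over small polysomes (log scale) for each of the 45 members with enough reads, sorted within initiation factors, cytosolic and mitochondrial synthetases. Filled points use the initial small polysome library with 95% counting intervals, open points the extensive one, and the dashed line is the median of all genes (1.33). All 15 cytosolic synthetases lie right of the line for the initial library, and 1 of the 6 mitochondrial ones does.

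The biological replicate of the small polysomes moved these ratios. Member densities in the extensive library were a median of 1.31-fold those of the initial one, against 1.26-fold over 6424 genes of the whole table. The SD of the log2 fold was 0.374 over the 45 members and 0.565 over those genes. The median fold was 1.49 for initiation factors and 1.22 for synthetases. With the extensive library as denominator the median of all genes was 0.945. All 15 cytosolic synthetases then remained above that median and above 1, with ratios of 1.23 to 4.96. The mitochondrial ones lay at 0.488 to 1.57, so the ranges overlapped, and 4 of the 6 were above the median of all genes against 1 of 6 with the initial library.

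Polysome size depends on the length of the CDS, since longer CDSs have room for more ribosomes. Over all genes the median ratio was 0.228 for proteins of 1 to 100 aa and 2.23 for those above 1500 aa. Each member was therefore also set beside all genes of its own length class. Of the cytosolic synthetases 14 of 15 lay above the median of their class, and Aats-asp was the exception, at 1.72 against 1.79. Of the mitochondrial synthetases 0 of 6 did. Aats-arg ranked above 99.2% of the genes of its class, Aats-ala above 97.4% and Aats-val above 97.2%. The cytosolic enzymes were also the longer ones, with a median of 741 aa against 520 aa, and the more abundant ones as mRNA. The part of mRNA level in the difference of polysome ratio was not tested.

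**Figure D3:**
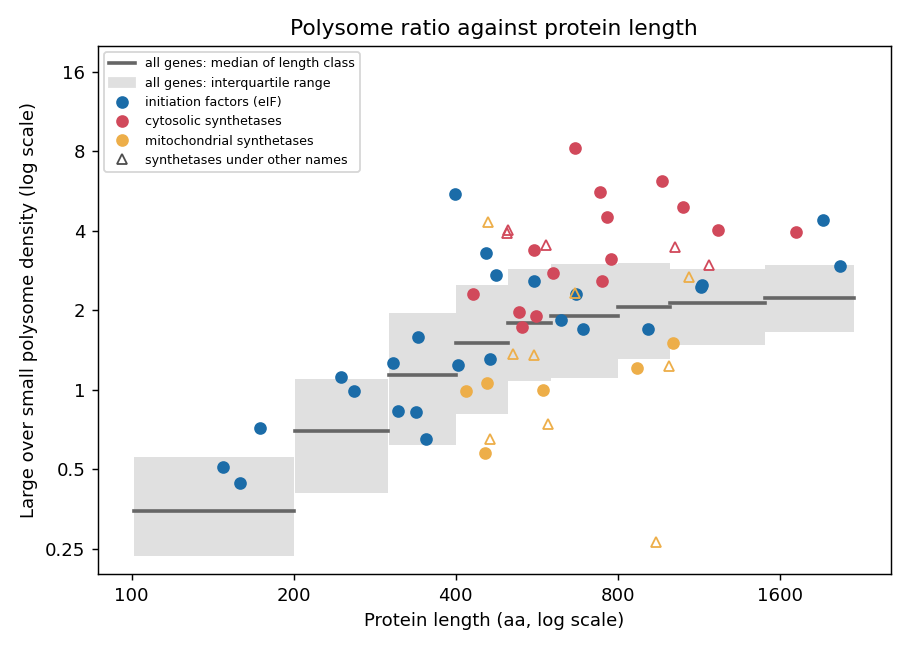
Ratio of footprint density in large over small polysomes (log scale) against protein length in amino acids (log scale), with the median and interquartile range of all genes per length class as grey bars and bands from 101 aa on. Filled points are members and triangles are synthetases listed under other names. Of the 15 filled cytosolic points, 14 lie above the median of their class, and the 6 filled mitochondrial points lie below theirs.

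Synthetases that the table lists under other names showed how far these values held outside the members. The 5 cytosolic ones were the leucine, methionine and serine enzymes and both subunits of the phenylalanine enzyme. Their mRNA densities were 47.0 to 162 RPKM and their polysome ratios 2.97 to 4.02, and all 5 were at least 2-fold above the median of all genes. Slimp, a relative of the mitochondrial serine enzyme (12.3 RPKM of mRNA, ratio 2.59), was put in neither set. The 9 mitochondrial ones had 4.04 to 29.2 RPKM of mRNA. Their ratios ran from 0.265 to 4.31, so unlike the members they overlapped the cytosolic range. The highest was CG6796 (AsnRS-m), at 2.24 RPKM in small and 9.64 RPKM in large polysomes. Above the median ratio of their length class lay 3 of these 9 mitochondrial genes and all 5 cytosolic ones. With these genes added, the 20 cytosolic and 15 mitochondrial synthetases still did not overlap in mRNA density, and their median polysome ratios were 3.49 and 1.21.

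Translation efficiency (TE), footprint density over mRNA density, placed the synthetases near the middle of all genes when all polysomes were counted. TE was computed for genes with at least 10 mRNA reads, and its median over 6975 genes was 1.02 in all polysomes. The 15 cytosolic synthetases had 0.633 to 1.34 with a median of 0.996, and the 6 mitochondrial ones 0.732 to 1.62 with a median of 0.952. The ranges overlapped and the fold between medians, 1.05, had bounds of 0.493 and 1.57. None of the 21 was 2-fold above or below the median of all genes, as 11.8% and 9.82% of all genes were.

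The polysome fractions showed where the cytosolic enzymes differed. In small polysomes their TE was 0.149 to 0.538, with a median of 0.320 against 0.769 for all genes. It was at least 2-fold below the median of all genes for 10 of the 15 and for 0 of the 6 mitochondrial ones, as for 19.8% of all genes. Here and below, TE in small polysomes is set beside genes of all CDS lengths, and the part of CDS length in it was not tested. Of the mitochondrial enzymes, which had 0.417 to 1.84 and a median of 0.773, Aats-ser was more than 2-fold above the median (15.2% of all genes). In large polysomes the cytosolic enzymes kept within 0.824 to 1.31 with a median of 1.01, against 0.920 for all genes and 0.685 for the mitochondrial enzymes. Between the highest and the lowest cytosolic gene, TE differed 3.62-fold in small polysomes and 1.59-fold in large ones. With the extensive library the cytosolic TE in small polysomes was 0.219 to 0.818 and overlapped with the mitochondrial range of 0.406 to 2.70. There 11 of the 15 cytosolic and 3 of the 6 mitochondrial genes (Aats-ala-m, Aats-leu and Aats-met) were 2-fold below the median of all genes (20.6% of all genes), against 10 and 0 with the initial library. Of the 45 members, 18 were below it and 4 were 2-fold above it (16.9% of all genes), namely eIF-1A, eIF-2beta, eIF5 and Aats-ser. Of the synthetases under other names, all 5 cytosolic ones were 2-fold below the median in both small polysome libraries. So were 3 of the 9 mitochondrial ones with the initial and 6 with the extensive library. With these genes added, the initial medians were 0.319 for cytosolic and 0.576 for mitochondrial synthetases (fold 0.554, bounds 0.236 and 0.856). In the extensive library they were 0.367 and 0.420 (fold 0.874, bounds 0.410 and 1.25, which include 1).

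Aats-ser, now SerRS-m (chr3R:11166558-11167811 in FlyBase Release 5, a single coding segment), stood apart from the other mitochondrial enzymes. It had 19.9 RPKM of mRNA and 36.7, 53.9, 36.2 and 32.2 RPKM of footprints in small polysomes, small polysomes extensive, large polysomes and all polysomes. Every footprint library was above the mRNA density, and TE in all polysomes was 1.62 (1.25 to 2.10). The next highest of the mitochondrial members was Aats-phe at 1.16 (0.887 to 1.51), whose interval overlapped. The cytosolic serine enzyme, listed as CG17259, had a TE of 0.977 and 162 RPKM of mRNA.

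**Figure D4:**
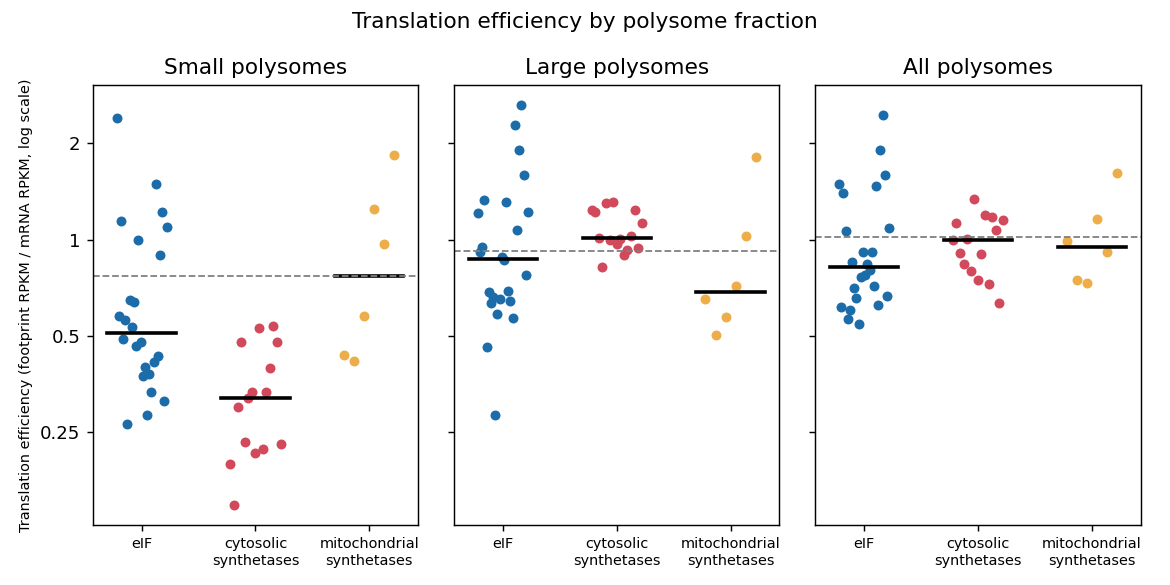
Translation efficiency (footprint RPKM over mRNA RPKM, log scale) in small, large and all polysomes, 1 point per gene, with the median of each group as a black bar and the median of all genes dashed. The cytosolic synthetases centre at 0.320 in small polysomes, well under the dashed line at 0.769, and at 1.01 and 0.996 in large and all polysomes.

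The initiation factors as a group had a median TE of 0.823 in all polysomes, against 0.990 for the 21 synthetases. The fold between these medians was 0.831 with bounds of 0.577 and 1.36, which include 1. In small polysomes the medians were 0.511 and 0.396, and the bounds of the fold, 0.753 and 3.84, include 1. With the extensive library they were 0.835 and 0.406, and the bounds, 1.04 and 3.31, exclude 1. The polysome ratios of the initiation factors, 0.444 to 5.48 with a median of 1.64, overlapped those of the synthetases, whose median was 2.59. The fold of 0.634 had bounds of 0.245 and 1.65. A ratio above 1 was found for 17 of the 24 initiation factors and 18 of the 21 synthetases, or for 13 and 16 when scaled to the reads on CDSs. Initiation factors had shorter CDSs than synthetases, with a median of 403 against 665 aa. Of the 24 with a ratio, 16 were above the median of their length class, 5 were 2-fold above the median of all genes (19.3% of all genes) and 3 were 2-fold below it (27.2%).

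Starting with the factors of the small subunit, eIF-1A, which assists scanning and start codon recognition, gave the highest TE of all members in small polysomes. It had 121 RPKM of mRNA, 288 in small polysomes, 529 in small polysomes extensive, 147 in large polysomes and 180 in all polysomes. Both small polysome libraries exceeded the others, and TE was 2.39 (2.06 to 2.78) in small and 1.21 in large polysomes. Its ratio of 0.508 was low against all genes but above the median of 0.346 in its own class of 101 to 200 aa. Its partner eIF1, listed as CG17737 and not a member, had a TE of 2.28 in all polysomes and a ratio of 0.156.

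The 3 subunits of eIF2 differed among themselves although they act in a single complex. Their TE in all polysomes was 0.614 (0.550 to 0.684) for eIF-2alpha, 1.06 (0.962 to 1.18) for eIF-2gamma and 1.40 (1.29 to 1.53) for eIF-2beta, with no overlap between the intervals. The polysome ratio took another order, 0.829 for eIF-2beta, 1.58 for eIF-2alpha and 2.71 for eIF-2gamma. The CDS of eIF-2gamma overlaps that of Su(var)3-9 on the same strand, a gene known to share exons with it, so that reads in the shared part cannot be assigned to either. The 5 subunits of eIF2B had TEs of 0.545 to 0.912, and eIF2B-gamma and eIF2B-beta took the ends of their polysome ratios at 3.28 and 0.652.

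All 5 members of eIF3 had a TE below the median of all genes in each fraction. In all polysomes the values were 0.567 for eIF-3p40, 0.604 for eIF-3p66, 0.718 for eIF3-S9, 0.805 for eIF3-S10 and 0.912 for eIF3-S8. In small polysomes 4 of the 5 were 2-fold below the median of all genes, with eIF-3p40 (0.562) as the exception, against 19.8% of all genes. With the extensive library 3 of the 5 were (20.6% of all genes). In large polysomes they had 0.462 to 0.694. Current symbols place 16 genes of the table in eIF3, and the 13 with enough reads had a median TE of 0.604 in all polysomes, with 4 of them 2-fold below the median of all genes (9.82% of all genes). Of these 13, the loosely bound subunit eIF3j, listed as Adam, had the highest TE at 1.66.

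The mRNA of eIF-3p40 (now eIF3h) shows the values behind a low TE. It had 468 RPKM of mRNA, 263 in small polysomes, 440 in small polysomes extensive, 216 in large polysomes and 265 in all polysomes. By RPKM each footprint library was below the mRNA density, and the extensive library came closest to it. Such a comparison depends on the scaling. Of the mapped reads, 79.1% fell on the CDSs for mRNA, against 51.7% in small polysomes and 63.7% in small polysomes extensive. Scaled to those reads, the extensive library would lie above the mRNA density.

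The scaffold proteins eIF4G and eIF4G2 had less mRNA than most expressed initiation factors, at the 80.9th and 71.6th percentiles of all genes, and a high TE. eIF4G2 (chr3R:19636016-19642733 in FlyBase Release 5, 5 coding segments, 2072 aa) had 22.5 RPKM of mRNA, 20.2 in small polysomes, 21.0 in small polysomes extensive, 59.2 in large polysomes and 55.1 in all polysomes. By RPKM the small polysome libraries were close to the mRNA density and the other libraries exceeded it. Scaled to the reads on CDSs, the small polysome libraries would exceed it too. Its TE of 2.46 (2.22 to 2.71) in all polysomes made it the only member that was 2-fold above the median of all genes. eIF4G followed with a TE of 1.91 (1.76 to 2.07) and a polysome ratio of 4.39 (3.96 to 4.88), and was 2-fold above the median of all genes in large polysomes, as were eIF4G2 and eIF4AIII (14.1% of all genes). Genes of their length class, above 1500 aa, had a median TE of 1.71 in all polysomes.

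With the initial small polysome library the highest polysome ratio among the eIF names belonged to eIF4AIII (chr3R:4139060-4140435 in FlyBase Release 5, 4 coding segments). It had 57.4 RPKM of mRNA, 23.8 in small polysomes, 50.8 in small polysomes extensive, 130 in large polysomes and 84.6 in all polysomes. The large polysomes were the highest library. The small polysome libraries differed 2.13-fold, so its ratio of 5.48 (4.55 to 6.63) fell to 2.57 with the extensive library, below eIF4G (3.67) and eIF4G2 (2.82). With the initial library it ranked above 98.9% of genes of 301 to 400 aa. The related helicase eIF-4a, of nearly the same length (403 against 399 aa), had a ratio of 1.24 (1.18 to 1.30) and a TE of 0.706.

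Among the remaining eIF names, eIF-5A, now eEF5, had the lowest polysome ratio of all members and the only TE in large polysomes that was 2-fold below the median of all genes (19.9% of all genes). It had 2776 RPKM of mRNA, 1774 in small polysomes, 2986 in small polysomes extensive, 787 in large polysomes and 1825 in all polysomes. The large polysomes were the lowest library, with a ratio of 0.444 (0.414 to 0.475), above the median of 0.346 for its class of 101 to 200 aa. eIF5, the GTPase-activating protein of eIF2, had a TE of 1.59 (1.38 to 1.82) in all polysomes, whereas eIF5B, the GTPase of subunit joining, had 0.665 (0.601 to 0.736). eIF6, which keeps the large subunit apart from the small one, had 1.09.

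Other genes of the initiation pathway, from a list of 16 of which 13 were found in the table, had TEs of 0.564 to 1.99 in all polysomes with a median of 1.26. None of the 13 was 2-fold away from the median of all genes. The poly(A)-binding protein pAbp had 582 RPKM of mRNA and a TE of 1.60, and NAT1, a relative of eIF4G, had 103 RPKM and a TE of 1.55. The inhibitor Thor, which binds eIF4E, had 70.6 RPKM of mRNA and a polysome ratio of 0.220, and 4EHP, an eIF4E relative, had 18.8 RPKM and a TE of 1.23. The kinases of eIF2, Gcn2 and PEK, had TEs of 1.99 and 1.28. Current symbols name 17 genes listed under other names as eIF, some of them among the genes above. The 13 of these with enough reads had a median TE of 0.657 (0.358 to 2.28) in all polysomes. Of them 1 was 2-fold above the median of all genes (11.8% of all genes) and 4 were 2-fold below it (9.82%). Of all genes with a current eIF symbol, 35 had a polysome ratio, with a median of 1.31. Of these 22 were above 1 (60.6% of all genes).

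The rule for calling a CDS translated was rounded from that of the study, whose cut-offs are slightly higher in RPKM and slightly lower in coverage. A CDS was counted as translated in a library at 10 RPKM or more, a footprint coverage of at least 0.6 of its length and at least 5 reads. Among the 49 members with values, 36 met this in small polysomes (28.2% of all genes), 43 in small polysomes extensive (36.9%), 37 in large polysomes (21.7%) and 44 in all polysomes (38.2%). All 4 footprint libraries met this for 20 of the 28 initiation factors with values and for 13 of the 21 synthetases, against 19.2% of all genes. Of the synthetases these were 12 of the 15 cytosolic and 1 of the 6 mitochondrial genes, Aats-ser. The 3 cytosolic genes that missed it, Aats-arg, Aats-cys and Aats-val, did so in the initial small polysomes, with coverages of 0.407, 0.459 and 0.553, and met it in large and all polysomes. In all polysomes each of the 21 synthetases was translated by this rule, as was each expressed initiation factor except eIF4E-6. Of the synthetases under other names, all 5 cytosolic and 3 of the 9 mitochondrial ones were translated in all polysomes. Only 4 of these 9 reached 10 RPKM of mRNA. The shares of all genes are not matched for mRNA level. At least 10 RPKM of mRNA was reached by 45 of the 49 members and by 40.0% of all genes. The part of mRNA level in these counts was not tested.

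Upstream ORFs, short reading frames in the leader before the CDS, were listed for 12 of the 29 initiation factor genes and 11 of the 21 synthetase genes. Of the 35 distinct uORFs of initiation factors 10 met the same rule in at least 1 library, and of the 20 of synthetases 6 did, against 17.8% of all 14888 uORFs. That share is not matched for mRNA level. The paper counted only part of all listed uORFs as transcribed in S2 cells, whereas every member gene with a listed uORF had mRNA reads. The counts are therefore not read as an excess. Of the member uORFs, 13 of the initiation factors and 5 of the synthetases were listed at 0 RPKM in at least 1 library although footprints covered at least 0.6 of their length, so they could not meet the rule there and the counts may miss some. The most lay in eIF5, with 11 uORFs of which 4 met the rule, and 2 of these 4 overlap, with the same number of reads in 3 of the 4 libraries. All 3 of eIF4G2 met it. A uORF of Aats-ser (chr3R:11166499-11166549, 51 nt, just before the CDS start) was the only one of these genes to meet it in all 4 libraries. Its densities were 17.8, 49.2, 59.8 and 55.3 RPKM in small polysomes, small polysomes extensive, large polysomes and all polysomes, from 5 to 23 reads. A uORF of eIF5 of 129 nt (chrX:15882909-15883037) had 18.3, 67.7, 53.2 and 63.2 RPKM in the same order and met the rule in 3, as its coverage in the initial small polysomes was 0.597. That value would pass the slightly lower coverage cut-off of the study.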

How the data were processed

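Alignment was done by the authors, with TopHat against FlyBase Release 5.50. A read counted if it had a single position and no more than 2 mismatches, and Bowtie had first removed rRNA and tRNA. The deposited values are RPKM per CDS or uORF and the coverage fraction, the covered part of each, with no depth of their own. Unique mapping can remove reads from near-identical copies. The mRNA values appear to pool 2 libraries.

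Reads were recovered here from the RPKM steps and came out whole for 100% of CDSs. TE and the polysome ratio were computed from RPKM and called at 2-fold from the median of all genes. Intervals are 95%, exact binomial for ratios of reads and order-statistic for medians, and cover counting error or the spread between genes only. Bounds on a fold between medians set opposite interval ends against each other. With 1 library per group no test was run. Every member could be named, by role, with all libraries given for extremes and misnamed genes. Members and lists were chosen with earlier results of these data known. The ncRNA table was not used here. Procedures were tested on simulated reads. Alternatives concerned the CDS counted, naming, read minimums, a pseudocount, scaling, the small polysome library and the cut-offs. The software was scipy 1.17.1, pandas 2.3.3 and numpy 2.4.6 in Python 3.11.15, with figures by matplotlib 3.10.9.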

Additional observations from a re-analysis of the deposited data

How the results depend on the processing

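The comparisons of initiation factors with synthetases and of cytosolic with mitochondrial synthetases, together with the counts of translated members (12 results), were recomputed under 75 alternatives, of which 73 stayed within the interval of the reported value or within 1.5 times the count. Part of these could not move a result, so the count is no measure of robustness. Scaling to the reads on CDSs multiplies both groups by the same factor. The minimum of 1 RPKM of mRNA removed no member with a TE or polysome ratio, and dropping the read minimum added none to the TE comparisons. No difference whose interval excluded 0 changed sign. Values are log2 differences of medians, with mitochondrial genes taken by name. Taking them by current symbol moved the difference in TE of small polysomes from -0.25 to -1.27, and that in polysome ratio went from 0.83 to 1.72, within its interval, which is wide because the division by name leaves 1 mitochondrial gene. Adding the synthetases under other names, an alternative chosen after seeing the data, moved the difference in mRNA from 1.60 to 2.39. With the extensive small polysome library the TE of initiation factors in small polysomes exceeded that of synthetases by 1.04 in place of 0.37. The bounds were 0.059 and 1.73 with the extensive library, which exclude 0, and -0.41 and 1.94 with the initial one, which include it. Differences whose intervals include 0 did change sign. That of initiation factors minus synthetases in mRNA went from -0.13 to 0.40 over members with at least 1 RPKM. That of cytosolic minus mitochondrial synthetases in TE of all polysomes went from -0.053 to 0.0086 with a minimum of 100 reads, to 0.066 by current symbol and to 0.17 with the other synthetases. No paired analysis was possible because each group has 1 sample, and the replicate of the small polysomes served as an alternative denominator or library. Depth limits genes with few reads, such as eIF4E-6 with 24 large polysome footprints and the mitochondrial synthetases with 40 to 130.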
